A study of Rattus norvegicus with 16 samples.

Results

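The livers described here came from 4 male Fischer F344 rats that served as the controls of a study of dithiolethiones, sulfur-containing compounds that raise the levels of detoxifying enzymes. They make up 4 of 16 arrays, and were chosen by their sample titles, which call them untreated, while the treatment protocol gives the control rats the vehicle, so they are called vehicle livers here. The animals were bought at 6 weeks of age and 80 to 100 g, were housed singly under 14 h of light and 10 h of dark, and received saturated sucrose by gavage every other day for 5 days, 3 doses in all. The livers were taken 24 h after the last dose and snap frozen. The other groups, 4 rats each, received 0.3 mmol/kg of D3T, OLT (oltipraz) or TBD in the same vehicle on the same schedule, and are used here only for the spread between animals. All 16 rats shared the strain, sex, sucrose gavage and housing, and the time of day of the kill and the feeding state are not given in the sources used here.

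Total RNA of each liver was hybridised to a 1-colour Affymetrix rat array, so that each animal is 1 array and the spread between animals cannot be told apart from the spread between arrays. The deposited values are log2 GCRMA values, which is brightness after background correction on the sequence of each probe, and a difference of 1 is a factor of 2 in signal. Values are given as the mean ± SD over the 4 vehicle arrays (n = 4 throughout), or for replicates 1 to 4 in that order. The number of arrays limits their precision. The array held 8740 probe sets, of which 7006 carried 1 gene symbol, for 4736 genes, and a gene is given by its brightest probe set.

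The liver makes most of the proteins of the blood plasma, converts ammonia to urea, releases glucose between meals, makes bile acids and cholesterol, and chemically alters foreign compounds through cytochromes P450 and conjugating enzymes. Most of this work is done by hepatocytes, which surround small numbers of macrophages, endothelial cells, stellate cells and bile duct cells. In whole tissue, fewer cells of a type and less RNA per cell cannot be told apart.

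A gene was counted as detected where it lay above a control level on all 4 arrays. The control level of an array was the 95th percentile of 126 probe sets of 71 genes of brain, muscle, testis and pituitary, and it lay at 4.89, 4.24, 4.54 and 4.29 on the 4 arrays. By this measure 1468 of 4736 genes (31.0%) were above the control level on all 4 arrays, 373 on some of them, and 2895 on none. The 31.0% is the share to set beside each family count below. Against the plain median of each array, which lay between 3.27 and 3.58, 2478 genes (52.3%) were above on all 4 arrays, but so were 24 of the 71 control genes, so the control level is used for the families below. At the control level 6 of the 71 remained above, among them the neuronal receptor gene Chrna7 (5.71 ± 0.49) and the neurofilament gene Nefh (5.37 ± 0.42), which is close to what the 95th percentile sets by construction. A reading below the control level cannot be told apart from a probe set that does not work, and the order of 2 genes is an order of signal, because probes differ in how well they bind.

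**Figure D1:**
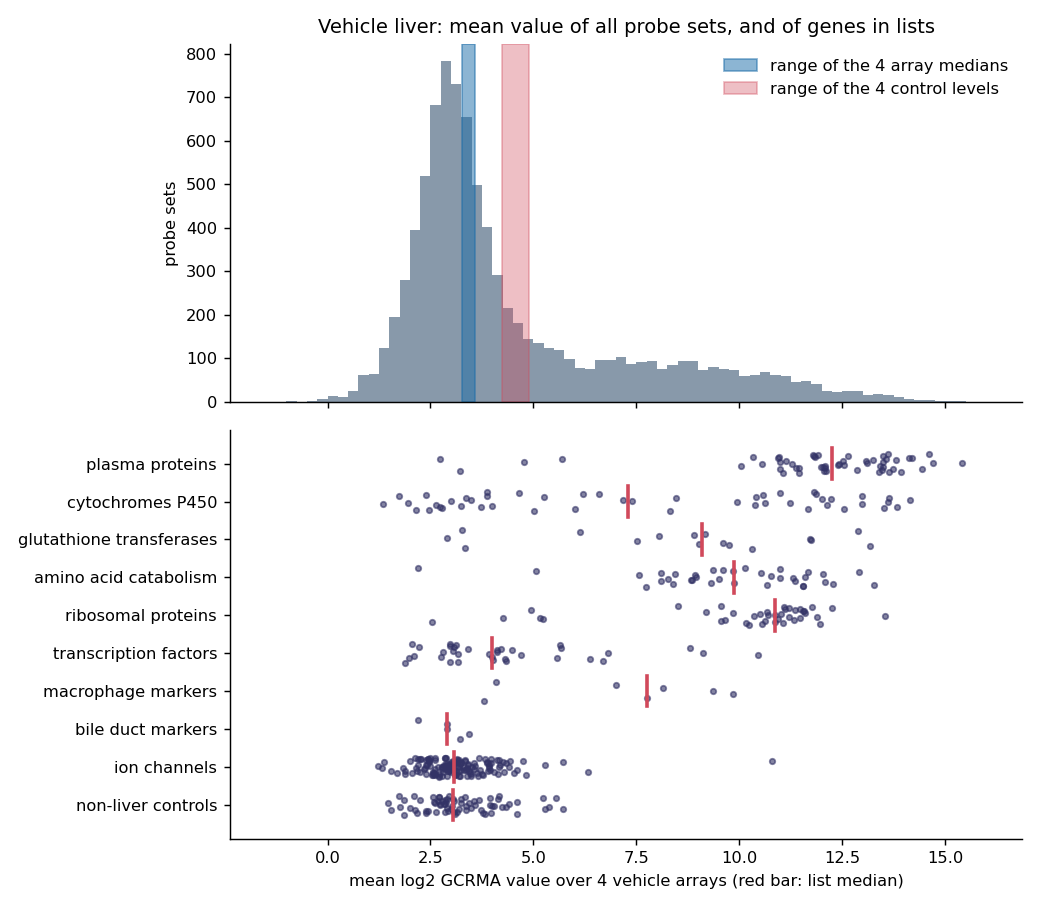
The upper panel counts all 8740 probe sets by their mean log2 GCRMA value over the 4 vehicle arrays, with bands for the ranges of the array medians (3.27 to 3.58) and control levels (4.24 to 4.89). The lower panel shows each measured gene of 10 lists as a point, with the list median as a red bar: plasma proteins centre on 12.24 and non-liver control genes on 3.05.

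The brightest genes of the vehicle liver were those of secreted plasma proteins. Alb, which encodes serum albumin, the main protein of plasma, had 15.39, 15.38, 15.40 and 15.46 on the 4 arrays. It was the brightest gene among probe sets with 1 symbol, and a probe set without a symbol averaged about the same, at 15.41. Of the 25 brightest genes, 12 are on the plasma protein list used below, which does not hold every secreted protein, and 4 are cytochromes P450. Their SDs between animals ran from 0.032 to 0.27 with a median of 0.099, so these 25 genes differed little between animals. Among the 40 brightest probe sets, an unnamed probe set with several symbols had an SD of 1.00, with 13.21 in replicate 2.

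The stretches of sequence just before the annotated starts of 6 such genes are shown because they carry short motifs known from liver promoters. They are 120 bases each from RefSeq, build GRCr8, written 5′ to 3′ on the strand of the gene, at chr14:17906980-17907099 (minus strand) for Alb, chr2:170700876-170700995 (minus) for Fgb, chr2:170672049-170672168 (plus) for Fga, chr1:50915407-50915526 (minus) for Plg, chr4:104749220-104749339 (plus) for Fabp1 and chr1:246175096-246175215 (plus) for Cyp2c11. Capitals mark the letters GTTAAT or their reverse complement ATTAAC, which form one arm of the sites bound by the hepatocyte factor HNF1, and TATAAA, the TATA box at which transcription is positioned.
Alb: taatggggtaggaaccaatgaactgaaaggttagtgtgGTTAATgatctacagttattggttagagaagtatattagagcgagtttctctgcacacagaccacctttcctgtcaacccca
Fgb: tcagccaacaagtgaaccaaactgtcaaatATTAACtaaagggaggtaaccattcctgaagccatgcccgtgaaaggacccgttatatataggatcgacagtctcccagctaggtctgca
Fga: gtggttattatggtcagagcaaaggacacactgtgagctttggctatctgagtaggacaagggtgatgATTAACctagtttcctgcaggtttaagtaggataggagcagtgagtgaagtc
Plg: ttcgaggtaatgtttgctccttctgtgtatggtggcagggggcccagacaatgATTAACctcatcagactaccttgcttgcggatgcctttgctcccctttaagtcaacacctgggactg
Fabp1: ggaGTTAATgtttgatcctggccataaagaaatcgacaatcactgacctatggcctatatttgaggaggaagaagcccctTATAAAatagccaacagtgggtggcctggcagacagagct
Cyp2c11: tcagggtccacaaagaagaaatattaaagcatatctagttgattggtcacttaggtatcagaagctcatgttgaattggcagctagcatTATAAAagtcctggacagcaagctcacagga
The HNF1 letters ended 77 bases before the start in Alb, 85 in Fgb, 47 in Fga, 62 in Plg and 112 in Fabp1, and the TATA box ended 35 bases before the start in Fabp1 and 26 in Cyp2c11.

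Over the 250 bases before the start, on both strands, the HNF1 letters stood in 12 of 42 plasma protein promoters that had a RefSeq entry (28.6%), in 3 of 18 among the 25 brightest genes (16.7%) and in 4.8% of the 3879 promoters matched to genes on the array. Among genes above the control level the share was 5.7%, and among genes below the array median it was 4.4%. The same letters stood in 4 of 26 proteasome promoters (15.4%), in 4 of 36 ribosomal protein promoters (11.1%) and in 3 of 52 promoters of the non-liver control genes (5.8%). For P450 promoters it was 4 of 36 (11.1%). The TATA box stood in 12 of 36 P450 promoters (33.3%), in 12 of 52 promoters of the non-liver control genes (23.1%) and in 10.9% of the promoters of genes on the array. In plasma protein promoters it stood in 7 of 42 (16.7%). The E box CACGTG stood in 0 of 42 plasma protein promoters, against 7.8% of those of genes on the array. Further motifs were searched and are not given here. Both the motifs and the promoters shown were chosen after values were seen, and a match is a description of letters, not of a bound site.

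Plasma protein genes were measured for 54 members, of which 51 were above the control level on all 4 arrays, 2 were below it and 1 was mixed, against 31.0% above among all genes. After Alb came Serpina1, the protease inhibitor alpha-1-antitrypsin, at 14.70 ± 0.053, and Apoc3, an apolipoprotein that slows the clearance of triglyceride, at 14.60 ± 0.045. Ambp, the precursor of alpha-1-microglobulin and bikunin, had 14.45, 14.51, 14.52 and 14.26, and replicate 4 was slightly lower than the others. Apoh, a phospholipid-binding plasma glycoprotein, averaged 14.20 ± 0.12, and C3, the central protein of the complement cascade, averaged 14.11 ± 0.040.

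Carriers in plasma were close behind. Ttr, which carries thyroid hormone, averaged 13.93 ± 0.099, and its partner Rbp4, the retinol carrier, averaged 13.62 ± 0.078. Hp and Hpx, which bind free hemoglobin and heme, averaged 13.55 ± 0.083 and 13.47 ± 0.098. Gc, the vitamin D carrier, averaged 13.41 ± 0.077, and Serpina6, the corticosteroid carrier, 12.07 ± 0.18. The apolipoproteins Apoe, Apoa1 and Apoa2 averaged 13.74 ± 0.12, 13.64 ± 0.098 and 13.07 ± 0.23, and Apob, the structural protein of very low density lipoprotein, averaged 12.86 ± 0.28. Pon1, an esterase that travels on high density lipoprotein, averaged 13.49 ± 0.28.

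Several members act in clotting. The 3 fibrinogen chains Fga, Fgb and Fgg lay at 13.09 ± 0.086, 13.39 ± 0.11 and 13.24 ± 0.076. The spread between animals was narrow for each of them. F2, prothrombin, averaged 13.48 ± 0.20, and Plg, the precursor of the clot-dissolving enzyme plasmin, 12.02 ± 0.21. F10, Proc and F9, which encode the vitamin K-dependent factor X, protein C and factor IX, averaged 11.45 ± 0.049, 10.98 ± 0.15 and 10.32 ± 0.15.

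The lowest values in the list were those of A2m, Afp, Lbp and Rgn. A2m, which rises strongly in the inflamed rat liver, had 5.21, 6.25, 5.76 and 5.54, above the control level in every animal and highest in replicate 2. The next of its 6 probe sets had 4.84, 4.17, 4.56 and 4.44, lowest in replicate 2 and below the control level in replicates 1 and 2. Its dimmer probe sets were below that level in every animal. Afp, the fetal counterpart of albumin, had 4.44, 4.65, 4.41 and 5.61, and was clear of the control level in replicate 2 and replicate 4 alone. Lbp, the endotoxin-binding protein, lay below the control level at 3.21 ± 0.17, as did Rgn, a calcium-binding protein also called SMP30, at 2.72 ± 0.14.

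Among 18 acute-phase genes, 14 were above the control level and the other 4, Lbp, Il1rn, Lcn2 and Socs3, were below it. Il1rn, the interleukin-1 receptor antagonist, averaged 3.04 ± 0.10, Lcn2, an iron-scavenging protein of inflammation, 2.70 ± 0.13, and Socs3, a feedback inhibitor of cytokine signals, 2.29 ± 0.12. Orm1, the acid glycoprotein orosomucoid, had 10.17, 10.73, 10.95 and 10.32, with an SD of 0.36 that was wider than that of most plasma protein genes. Over the list the median SD was 0.12.

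Not all probe sets of a gene read alike. Alb had 4 probe sets, which averaged 15.41, 15.19, 14.04 and 2.51, and Fgb had 2, at 13.39 and 2.69. Cat, which encodes the peroxide-splitting enzyme catalase, had 3, at 13.55, 13.00 and 2.53, and Cps1 had 3, at 12.92, 11.47 and 3.92. Over the 1565 genes with several probe sets, 309 had all of them above the control level, 726 had all below, and 296 had at least 1 on each side on all 4 arrays. The dimmest probe set of Alb alone would therefore have placed albumin among the undetected genes of the liver.

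**Figure D2:**
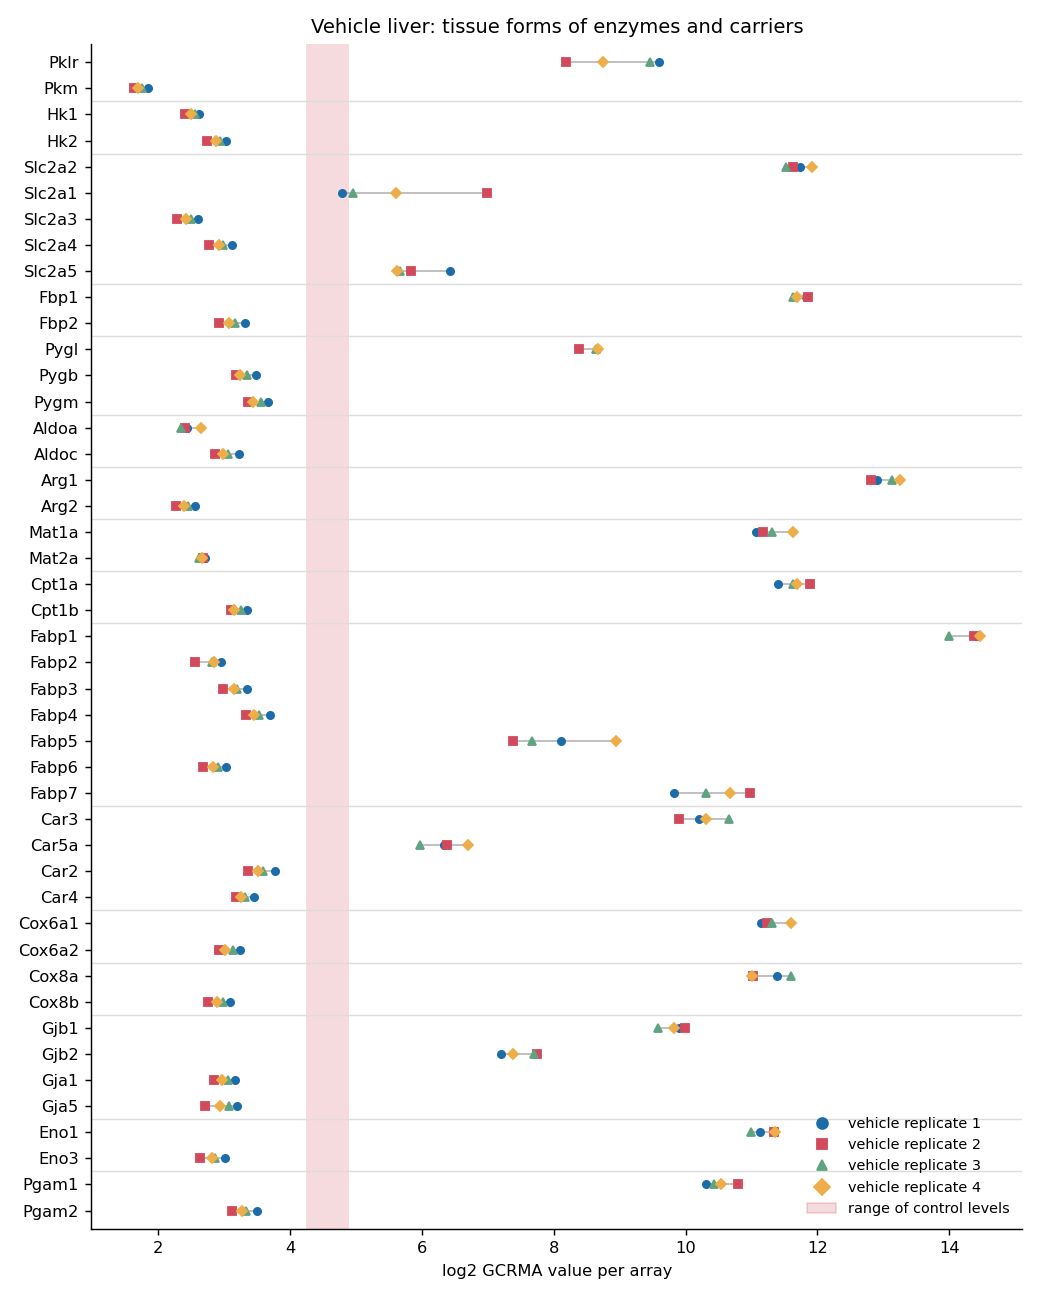
Log2 GCRMA values (horizontal axis) of enzyme and carrier forms on each of the 4 vehicle arrays, with related forms grouped between grey lines and the red band marking the control levels of the 4 arrays (4.24 to 4.89). Pklr, Slc2a2, Fbp1, Pygl, Arg1, Mat1a, Cpt1a and Fabp1 sit to the right of the band in every animal, and Pkm, Slc2a3, Fbp2, Pygm, Arg2, Mat2a, Cpt1b and Fabp2 to its left.

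Many enzymes exist as separate gene products in liver, muscle and brain, and in most sets the form detected in the vehicle livers was the one known from liver. Among 16 such sets, grouped after values were seen, 14 had the form known from liver above the control level on all 4 arrays, and in 11 of these every other form compared was below it on all 4. Across the sets 22 of 27 other forms were below. The 5 others were Slc2a1, Slc2a5, Fabp5, Fabp7 and Cox4i2. Because the sets were formed with the values known, these counts only describe the sets. In some sets the form counted as known from liver is a general form, such as Cox6a1 and Cox8a. Of all 84 isozyme genes, 30 (35.7%) were above the control level, 3 were mixed and 51 were below. These shares are near those of all genes, 31.0% above and 61.1% below. Gjb2, a connexin that hepatocytes also make and that was not placed among the other forms, was above the control level in all 4 animals, with 7.20, 7.74, 7.70 and 7.38.

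In glucose handling, Pklr, the liver and red cell pyruvate kinase, had 9.60, 8.18, 9.45 and 8.75, whereas Pkm, the form of muscle and most growing cells, had 1.84, 1.63, 1.76 and 1.70. The Pklr values were far above the control level in all animals and lowest in replicate 2. Slc2a2, the low-affinity glucose transporter GLUT2, averaged 11.70 ± 0.17, and Slc2a3 and Slc2a4, the transporters of neurons and of insulin-responsive muscle and fat, averaged 2.45 ± 0.13 and 2.95 ± 0.15. Slc2a1, the transporter of most cell types, had 4.79, 6.98, 4.96 and 5.61, highest in replicate 2 and below the control level in replicate 1. Fbp1, the gluconeogenic fructose bisphosphatase, averaged 11.75 ± 0.11 and the muscle form Fbp2 3.12 ± 0.17. Pygl, liver glycogen phosphorylase, averaged 8.59 ± 0.14, against 3.31 ± 0.13 for the brain form Pygb and 3.51 ± 0.14 for the muscle form Pygm. Gys2, liver glycogen synthase, averaged 8.99 ± 0.22. The hexokinases Hk1 and Hk2 lay at 2.52 ± 0.090 and 2.89 ± 0.12.

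In amino acid and fat handling, Arg1, the arginase of the urea cycle, averaged 13.02 ± 0.20, and Arg2, the mitochondrial form of other tissues, 2.42 ± 0.12. Mat1a, which makes S-adenosylmethionine in liver, averaged 11.30 ± 0.24, against 2.67 ± 0.040 for Mat2a. Cpt1a, the carnitine transferase that admits fatty acids to liver mitochondria, averaged 11.65 ± 0.20, and its muscle form Cpt1b 3.21 ± 0.11. Fabp1, the liver fatty acid binding protein, had 14.40, 14.37, 14.00 and 14.47, and the intestinal, heart, fat cell and ileal forms Fabp2, Fabp3, Fabp4 and Fabp6 lay between 2.80 and 3.50. Fabp7, known as the brain form, was bright, with 9.82, 10.97, 10.31 and 10.67, as was the skin form Fabp5, with 8.11, 7.37, 7.66 and 8.94. Both were thus above the control level in each animal, Fabp7 highest in replicate 2 and Fabp5 in replicate 4.

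The same held for structural and respiratory forms. Cox6a1 and Cox8a, the general forms of cytochrome oxidase subunits, averaged 11.33 ± 0.20 and 11.25 ± 0.29, and the heart and muscle forms Cox6a2 and Cox8b 3.08 ± 0.14 and 2.93 ± 0.14. Gjb1, the main gap junction protein of hepatocytes, averaged 9.83 ± 0.18, and the heart and vessel proteins Gja1 and Gja5 3.01 ± 0.13 and 2.98 ± 0.21. Actb, the general actin, averaged 13.15 ± 0.13, while the muscle actins Acta1, Actc1 and Acta2 lay between 1.65 and 2.94. Ckm, muscle creatine kinase, was among the dimmest of the isozymes at 1.47 ± 0.11.

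Some enzymes known to work in liver were not detected by their probe sets. Pfkl, the liver form of phosphofructokinase, averaged 2.10 ± 0.083, and the acetyl-CoA carboxylases Acaca and Acacb averaged 1.92 ± 0.11 and 2.45 ± 0.12. All were below the control level on all 4 arrays.

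All 5 measured urea cycle genes were above the control level. Arg1 at 13.02 and Cps1, the mitochondrial entry enzyme, at 12.92 ± 0.30 were the brightest, followed by Ass1 (12.21 ± 0.27), Otc (11.12 ± 0.053) and Asl (10.38 ± 0.36), which carry the nitrogen through citrulline and argininosuccinate. Otc varied least between animals.

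Of 36 genes listed under amino acid breakdown, 34 were above the control level, against 31.0% of all genes. The list is wider than its name: it also holds asialoglycoprotein receptor genes, urate oxidase and the glutamine synthetase Glul, all above that level. The brightest were Cdo1, which oxidises cysteine, at 13.28 ± 0.29, Hpd, an enzyme of tyrosine breakdown, at 12.90 ± 0.051, and Tdo2, which opens the tryptophan ring, at 12.27 ± 0.30. Glud1, glutamate dehydrogenase, and Bhmt, which remethylates homocysteine, averaged 12.08 ± 0.062 and 12.03 ± 0.097. The widest spread belonged to Got1, the cytosolic aspartate transaminase, with 8.28, 10.56, 9.21 and 10.00. Its value was lowest in replicate 1 and highest in replicate 2. Ahcy, which splits S-adenosylhomocysteine, had 10.91, 9.88, 11.21 and 11.11, with replicate 2 lowest. Pcca, a propionyl-CoA carboxylase subunit, was mixed at 5.06 ± 0.61, and Hpgd, a prostaglandin dehydrogenase, was below the control level at 2.20 ± 0.13.

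In glucose output and glycogen metabolism 15 of 18 genes were above the control level. Pck1, which controls the entry of oxaloacetate into glucose synthesis, had 12.26, 11.99, 12.31 and 12.24, with little difference between animals. Slc37a4, the glucose-6-phosphate transporter, and Pc, pyruvate carboxylase, averaged 11.37 ± 0.071 and 10.68 ± 0.18. The 3 below the control level were Pfkl, the glycogen targeting subunit Ppp1r3b (3.07 ± 0.13) and the insulin receptor Insr (2.01 ± 0.096).

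Genes of fatty acid oxidation were above the control level in 24 of 29 cases, against 31.0% of all genes. Acsl1, which activates long-chain fatty acids, averaged 12.27 ± 0.096, and Acaa2 and Acadl, 2 enzymes of the mitochondrial cycle, 11.87 ± 0.053 and 11.62 ± 0.064. Acadvl, the very long-chain dehydrogenase, had 8.10, 8.87, 8.47 and 9.38, and Cpt2, the inner carnitine transferase, had 9.42, 10.05, 9.87 and 10.46. In both the values were higher in replicates 2 and 4 than in replicates 1 and 3. Hadh, another dehydrogenase of the cycle, at 1.66 ± 0.097, Ppara, the receptor that drives these genes, at 2.99 ± 0.12, and Pdk4, a kinase that spares pyruvate, at 3.02 ± 0.11 were below the control level.

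Fat synthesis genes were more divided, with 53.8% above the control level against 31.0% of all genes. Of 13 genes 7 were above the control level, led by Scd, a desaturase that makes monounsaturated fatty acids, at 13.78 ± 0.13, and the elongase Elovl5 at 12.69 ± 0.18. Fasn, fatty acid synthase, had 8.87, 6.28, 8.16 and 8.002, and its other probe set had 6.93, 3.62, 5.72 and 6.14. Both probe sets were lowest in replicate 2 and highest in replicate 1. Acly, which supplies cytosolic acetyl-CoA, had 10.46, 9.27, 9.38 and 9.52, and Me1, malic enzyme, had 10.53, 9.79, 10.16 and 10.22. These too were highest in replicate 1 and lowest in replicate 2, but the next probe set of Acly had 10.09, 9.25, 9.18 and 9.79, lowest in replicate 3, and that of Me1 had an SD of 0.059. The same order of extremes was seen in Pnpla3, a lipid droplet protein, with 5.24, 3.29, 3.51 and 4.52. Srebf1, which encodes the transcription factor that drives this pathway, had 4.31, 3.36, 3.56 and 4.45, lowest in replicate 2 and above the control level in replicate 4 alone.

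Cholesterol synthesis genes were above the control level in 12 of 15 cases, against 31.0% of all genes. Fdps, which makes farnesyl diphosphate, averaged 11.33 ± 0.16 and differed little between animals. Sqle, the squalene epoxidase that is a control point of the pathway, had 6.16, 8.10, 5.97 and 6.91, and Acat2, which makes acetoacetyl-CoA in the cytosol, had 5.69, 7.69, 5.27 and 4.96. In both genes replicate 2 was highest. Insig1, which holds back the cholesterol-sensing transcription factors, had 11.45, 11.68, 9.98 and 11.16, and Msmo1, a sterol methyl oxidase, had 9.15, 9.56, 8.17 and 9.09. Both were lowest in replicate 3 and highest in replicate 2, and the other probe set of each was also lowest in replicate 3. Those other probe sets had 9.20, 9.13, 7.64 and 9.19 for Insig1 and 8.79, 8.67, 7.79 and 8.56 for Msmo1, both highest in replicate 1, so the place of replicate 2 rested on 1 probe set of each. Not all genes of the pathway had replicate 2 highest: Dhcr7, the last reductase of the pathway and chosen after its values were seen, had 8.58, 7.99, 8.01 and 8.24, lowest in replicate 2.

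Bile acid genes were above the control level in 19 of 24 cases, against 31.0% of all genes. Slc10a1, the transporter that takes bile acids up from blood, averaged 12.52 ± 0.14, Baat, which joins them to taurine or glycine, 11.73 ± 0.060, and Akr1d1, a reductase of their synthesis, 11.44 ± 0.10. Cyp7a1, the rate-limiting enzyme of the main synthesis route, had 7.84, 7.13, 6.41 and 7.36, highest in replicate 1 and lowest in replicate 3. Cyp27a1, which starts the alternative route, was brighter and steadier at 12.23 ± 0.12, and Cyp7b1, which follows it in that route, was below the control level at 2.40 ± 0.15. Abcc2, which exports conjugates into bile, averaged 9.86 ± 0.21, while its relative Abcc3, which exports them to blood, was below the control level at 3.23 ± 0.16. The multidrug exporters Abcb1a and Abcb1b lay at 2.31 ± 0.12 and 2.92 ± 0.14.

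**Figure D3:**
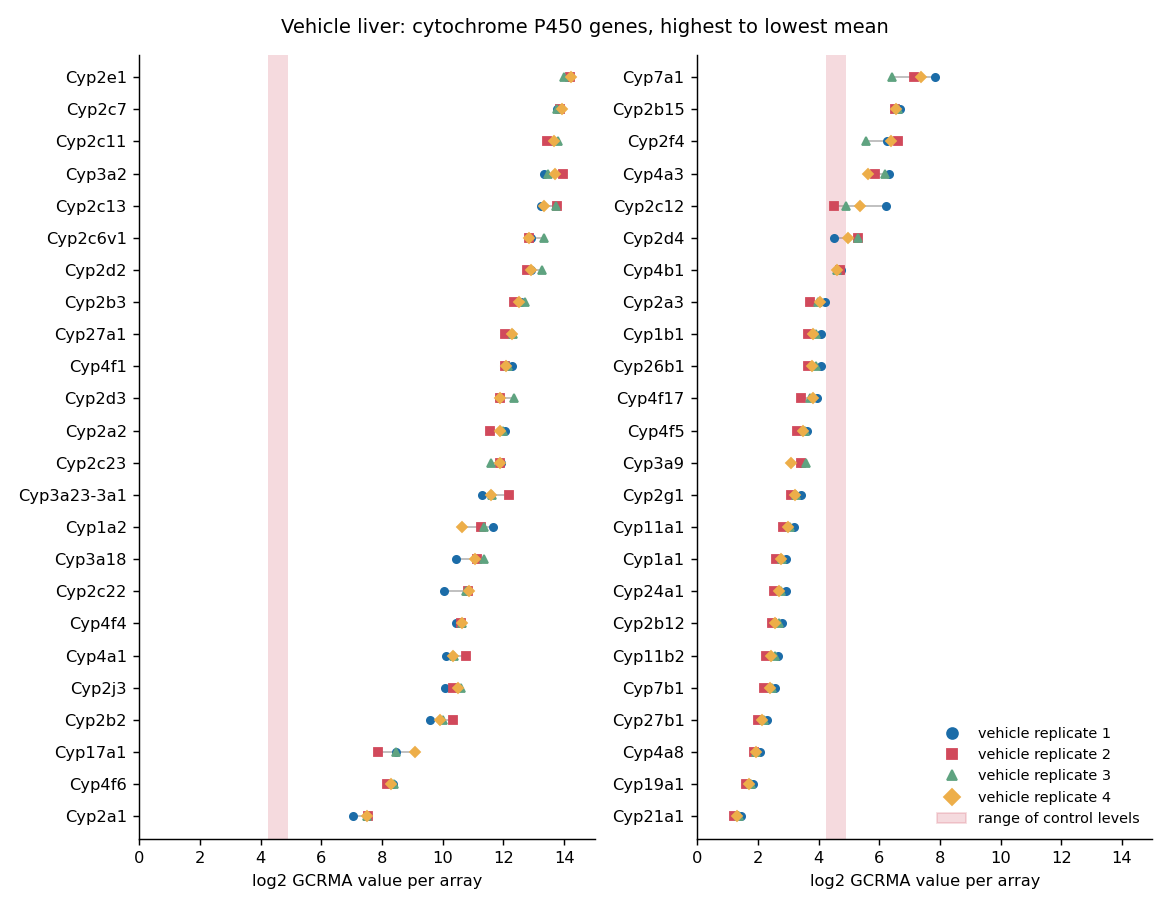
Log2 GCRMA values (horizontal axis) of the 48 listed cytochrome P450 genes, Cyp51 not included, on each of the 4 vehicle arrays, in order of their mean, with the red band marking the control levels of the 4 arrays (4.24 to 4.89). In 29 genes every animal lies above its control level, and in 17 every animal lies below it.

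Cytochromes P450 are heme enzymes that oxidise steroids, fatty acids and foreign compounds. Of 48 listed P450 genes, 29 (60.4%) were above the control level on all 4 arrays and 17 below it on all 4. Among all genes 31.0% were above and 61.1% below. Families 1 to 4, which handle mainly foreign compounds and fatty acids, held 26 of 37 above, and the other listed families 3 of 11, namely Cyp27a1, Cyp17a1 and Cyp7a1. The list holds symbols with a subfamily letter and a number, so Cyp51, the sterol demethylase, at 10.13 ± 0.22 and also above the control level, is counted with cholesterol synthesis instead. All 7 Cyp2c genes were above. Close relatives share sequence, so a probe set may also bind RNA of a neighbouring gene, and single members of these families are uncertain.

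Cyp2e1, which oxidises ethanol and acetone, was the brightest P450 with 14.17, 14.18, 13.99 and 14.23. Next were Cyp2c7 at 13.83 ± 0.081, Cyp2c11 at 13.64 ± 0.14 and Cyp3a2 at 13.61 ± 0.27. Cyp2c11, the major P450 of the adult male rat liver, had 13.64, 13.45, 13.79 and 13.67, and was lowest in replicate 2. Cyp2d2 averaged 12.97 ± 0.22, Cyp2b3 12.54 ± 0.15 and the fatty acid hydroxylases Cyp4f1 and Cyp4a1 12.14 ± 0.11 and 10.40 ± 0.27. Cyp1a2, which metabolises caffeine and aromatic amines, had 11.65, 11.26, 11.37 and 10.65, lowest in replicate 4. Its next probe set had 10.93, 10.94, 10.65 and 10.62, with replicates 3 and 4 nearly equal. A further one had 9.99, 10.17, 9.85 and 10.14, lowest in replicate 3. Cyp1a1, the inducible relative of Cyp1a2, was below the control level in every animal, with 2.93, 2.60, 2.81 and 2.75.

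The 17 P450 genes below the control level included Cyp11a1, Cyp11b2, Cyp19a1 and Cyp21a1, the steroid hormone enzymes of adrenal gland and gonads, and these lay between 1.34 and 3.01. Cyp27b1 and Cyp24a1, which activate and degrade vitamin D in the kidney, averaged 2.15 ± 0.12 and 2.72 ± 0.16, and Cyp2g1, known from the nose, 3.25 ± 0.14. Cyp1b1 and Cyp26b1 averaged 3.86 ± 0.19 and 3.86 ± 0.17. Cyp17a1, also a steroid hormone enzyme, was bright in these livers, with 8.47, 7.87, 8.45 and 9.10.

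Adult rat liver differs between the sexes, set by the pattern in which the pituitary releases growth hormone. In these male livers 14 of 15 male-predominant genes were above the control level, led by Cyp2c11, Cyp3a2, Cyp2c13 (13.51 ± 0.27), the lipocalin Obp3 (12.88 ± 0.21) and Sult1c3 (12.88 ± 0.094). Rgn was the member below it. Among all genes 31.0% were above it. Of 13 female-predominant genes 8 were above, including Cyp2c7 and Sult2a1 (11.87 ± 0.25), which males also express. Cyp2c12, the classical female P450, had 6.21, 4.49, 4.90 and 5.38, highest in replicate 1 and lowest in replicate 2. The female-predominant Cyp3a9 and the prolactin receptor Prlr lay below it at 3.37 ± 0.21 and 4.21 ± 0.18. No female livers were measured here, so the lists describe these males only.

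The growth hormone receptor Ghr averaged 10.35 ± 0.18, and Igf1, the growth factor it induces, 11.21 ± 0.10. Igfals, which stabilises circulating IGF-1, averaged 9.28 ± 0.16. Igfbp1, the binding protein that insulin holds down, had 11.08, 11.91, 11.23 and 11.35, highest in replicate 2, and Igfbp3 had 6.69, 7.97, 6.73 and 7.66, higher in replicates 2 and 4. Igf2, abundant in fetal liver, was just above the control level at 5.41 ± 0.42. The signalling genes Irs1, Irs2, Stat5b, Socs2 and Cish were all below it, between 1.94 and 3.69.

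Conjugating enzymes were mostly bright. Among 16 glutathione transferases 13 were above the control level, led by Gstm1 (13.18 ± 0.14), the membrane form Mgst1 (12.87 ± 0.11), Gstm2 (11.75 ± 0.10) and Gsta1 (11.71 ± 0.20). Gstp1, which is low in normal rat hepatocytes and a marker of preneoplastic ones, averaged 6.13 ± 0.14. Gsta3, Gstm5 and the prostaglandin D synthase Hpgds were below the control level at 3.35 ± 0.18, 3.27 ± 0.14 and 2.90 ± 0.11. All 3 probe sets of Gsta3 were dim, between 3.20 and 3.35. Of 10 glucuronosyltransferases 6 were above, the brightest being Ugt2b15 at 11.87 ± 0.064, and the olfactory Ugt2a1 was below at 2.97 ± 0.11. Of 11 sulfotransferase genes, counting their cofactor synthases, 8 were above, with Sult1a1 at 12.44 ± 0.22. The cofactor synthase Papss2 averaged 8.76 ± 0.27 and its relative Papss1 3.19 ± 0.052, below the control level.

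Genes that the transcription factor NRF2 is known to drive matter here as the starting point of a study of dithiolethiones. In the vehicle livers 20 of 24 were above the control level, against 31.0% of all genes. Many of the 24 are liver enzymes in their own right. Gclm, the regulatory subunit of glutathione synthesis, had 9.74, 11.15, 9.71 and 10.52, highest in replicate 2. Its other 2 probe sets were nearly as bright, had SDs of 0.12 and 0.18, and were highest in replicate 4. Nqo1, a quinone reductase, had 4.77, 4.30, 4.39 and 4.02 and was below the control level in replicates 1, 3 and 4. Hmox1, heme oxygenase, averaged 3.77 ± 0.087, below it on all 4 arrays. Nfe2l2, which encodes NRF2 itself, averaged 6.70 ± 0.40.

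Among aldehyde, alcohol and keto reducing enzymes 18 of 22 genes were above the control level. Adh1c, alcohol dehydrogenase, averaged 11.64 ± 0.36 and Aldh2, which clears acetaldehyde, 11.07 ± 0.11. Adh7, the stomach form, and Aldh3a1, the corneal form, lay below it at 2.89 ± 0.11 and 2.54 ± 0.11. Of 15 carboxylesterases and related microsomal genes 13 were above, and Ces1dl1 had 8.84, 8.85, 8.54 and 6.20, with replicate 4 far below the others.

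Liver lobules are divided between cells near the portal vein and cells near the central vein. Of 18 periportal genes, all 18 were above the control level, from Alb at 15.41 to Igfbp2 at 5.23 ± 0.19. Of 16 pericentral genes 10 were above, and among all genes 31.0%. Glul, glutamine synthetase of the cells next to the central vein, had 11.01, 11.67, 11.00 and 10.27, highest in replicate 2 and lowest in replicate 4. Gulo, the enzyme of vitamin C synthesis that rats retain, averaged 10.73 ± 0.32. Axin2 and Lgr5, targets of the Wnt signal from the central vein, were below the control level at 2.83 ± 0.14 and 2.40 ± 0.13.

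Transcription factor genes had a list median of 4.00, and all genes one of 3.61. Of 35 liver transcription factor and nuclear receptor genes 8 (22.9%) were above the control level, against 31.0% of all genes, 8 were mixed and 19 were below. The brightest was Cebpb at 10.46 ± 0.043, followed by Nr0b2, a repressor of bile acid synthesis, at 9.11 ± 0.28 and the oxysterol receptor Nr1h3 at 8.79 ± 0.51. Hnf4a, which is needed for hepatocyte identity, had 6.51, 6.67, 7.08 and 6.98, and its 3 probe sets averaged 6.81, 6.66 and 6.21. Nr1h4, the bile acid receptor, averaged 6.37 ± 0.042. Cebpa, Foxa1, Nr5a2, Ppara and Rxra, all known to act in liver, were below the control level, between 1.99 and 4.02. Onecut1, also called HNF6, had 3.66, 6.73, 3.52 and 3.39, so that replicate 2 was clear of the control level and the other 3 animals were below it.

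Markers of cells other than hepatocytes were detected in part, and 31.0% of all genes were above the control level. The marker lists have few members, and their counts were not tested against that share or against each other. All 7 hepatocyte markers were above the control level. Of 7 macrophage markers 5 were above, with the complement gene C1qb at 9.85 ± 0.30, the Kupffer cell lectin Clec4f at 9.36 ± 0.41, Lyz2 at 8.14 ± 0.37 and Cd14 at 7.76 ± 0.42, and with C1qc and Csf1r below at 4.10 ± 0.059 and 3.80 ± 0.17. Of 6 endothelial markers 3 were above, namely Fcgr2b at 7.72 ± 0.34, Lyve1 at 7.28 ± 0.47 and Kdr at 6.74 ± 0.34. The others, Pecam1, Vwf and Flt1, were below at 3.14 ± 0.12, 3.13 ± 0.15 and 1.82 ± 0.086. Stellate and fibroblast markers were above in 4 of 9 cases, with the collagens Col3a1 at 9.60 ± 0.34 and Col1a1 at 6.96 ± 0.44. The other probe sets of Col1a1, averaging 3.96, 2.51 and 2.41, were below the control level in every animal. The smooth muscle actin Acta2 and desmin, Des, were below at 2.94 ± 0.15 and 1.46 ± 0.12.

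Few of the listed bile duct, lymphocyte and neutrophil genes were above the control level, which held for 31.0% of all genes. These lists are short, and the difference was not tested. None of 5 bile duct markers, Krt19, Epcam, Spp1, Ggt1 and Cftr, was above the control level, and they lay between 2.21 and 3.44. Of 7 lymphocyte markers the pan-leukocyte gene Ptprc was above at 4.99 ± 0.22, 1 B cell gene was mixed and 5 were below. The T cell genes Cd3d, Cd4 and Cd8a, among those below, lay between 1.44 and 3.40. Only 2 neutrophil genes were measured, S100a8 and S100a9, which averaged 3.602 ± 0.18 and 2.85 ± 0.14. Hbb, the beta globin of red cells, had 13.26, 12.56, 12.58 and 12.93, highest in replicate 1, whereas the red cell genes Slc4a1 and Alas2 were below the control level at 2.93 ± 0.15 and 2.15 ± 0.097. Of 14 pancreas genes, Amy2a3 and Ins2 were above at 9.76 ± 0.18 and 5.72 ± 0.13, and 11 were below, down to Ctrb1 at 1.23 ± 0.084.

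Antigen presentation genes were above the control level in 11 of 14 cases, with B2m, the light chain of class I molecules, at 11.75 ± 0.084 and the class II invariant chain Cd74 at 9.57 ± 0.32. RT1-Db1, a class II chain, had 7.55, 7.59, 7.24 and 8.72, Psmb9, an immunoproteasome subunit, had 7.53, 7.65, 7.17 and 8.41, and Tap1, a peptide transporter, had 6.82, 6.87, 6.59 and 7.74. In all 3 genes replicate 4 was the highest animal. Interleukin and receptor genes were above in 7 of 47 cases (14.9%), led by the interleukin-6 receptor Il6r at 10.36 ± 0.26. Of 145 ion channel genes, 7 (4.8%) were above, and the control list shares members with that list. Among all genes the share was 31.0%.

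General cell machinery was bright. Ribosomal protein genes were above the control level in 37 of 40 cases, led by Rps29 at 13.55 ± 0.10, with the muscle form Rpl3l below at 2.53 ± 0.11. Respiratory chain genes were above in 47 of 53 cases, led by Cox4i1 at 12.43 ± 0.20, and proteasome genes in 25 of 27, led by Psme1 at 11.05 ± 0.18. The mitochondrially encoded COX3 and COX2 averaged 14.49 ± 0.085 and 13.63 ± 0.17. Oaz2, an antizyme that regulates polyamine synthesis, was among the brightest genes and also among the steadiest, at 14.34 ± 0.032.

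Clock genes were read at the time of the kill, which is not given. Of 12 measured clock and clock-output genes 7 were above the control level, against 31.0% of all genes. Dbp, a clock-driven transcription factor gene, had 8.36, 8.18, 8.36 and 9.30, and Nr1d2 had 8.27, 9.10, 8.60 and 9.30, both highest in replicate 4. The other probe set of Dbp, about as bright, had 8.27, 8.65, 8.40 and 8.31 and did not set replicate 4 apart. Nr1d1 averaged 6.43 ± 0.15 and Per2 5.93 ± 0.28, while Bmal1, whose daily peak lies opposite to these, was below at 3.35 ± 0.19. Alas1, which limits heme synthesis, averaged 10.70 ± 0.23.

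Immediate early and stress genes were in part detected. Of 31 genes on the immediate early list 12 (38.7%) were above the control level, which is near the 31.0% of all genes. Klf9, a glucocorticoid-responsive factor, averaged 10.43 ± 0.30 and the phosphatase gene Dusp1 9.29 ± 0.35. Egr1, induced by growth signals and by stress, had 7.65, 9.67, 8.71 and 9.77, and Id3, an inhibitor of helix-loop-helix factors, had 7.27, 6.22, 7.17 and 7.51. Egr1 was lowest in replicate 1 and highest in replicate 4, whereas Id3 was lowest in replicate 2. Fos and Atf3 were below at 4.26 ± 0.16 and 3.24 ± 0.15. Constitutive chaperones were bright, with Hsp90ab1 at 12.56 ± 0.088 and Hspa5 at 11.08 ± 0.13, and the inducible Hspa1a, the unfolded protein response gene Ddit3 and the cell cycle inhibitor Cdkn1a were below at 2.86 ± 0.14, 3.05 ± 0.13 and 2.18 ± 0.071. Dnajb1, a heat shock cochaperone, had 7.14, 8.19, 6.90 and 8.40, higher in replicates 2 and 4.

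How many members of a family counted as detected depended on the threshold, and more so for some families. Against the array median, 17 transcription factor genes were above on all 4 arrays, 11 fat synthesis genes, 13 of 18 stress genes, 20 of 28 transporter genes, 22 interleukin and receptor genes and 40 ion channel genes. At the control level the same families had 8, 7, 8, 12, 7 and 7. The thresholds gave nearly the same count for plasma proteins (52 and 51), amino acid breakdown (35 and 34), glutathione transferases (13 at both) and ribosomal proteins (38 and 37). P450 genes had 36 above the median and 29 above the control level, and the 84 isozyme genes 40 and 30.

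The vehicle animals resembled each other closely across the array. Pairs of arrays correlated at r between 0.990 and 0.997 over the 8740 probe sets, which is a description across probe sets that share an array and are not independent replicates. Of the 2449 probe sets above the control level on all 4 arrays, between 31 (replicates 1 and 3) and 182 (replicates 1 and 4) differed by a factor of 2 or more within a pair. Replicates 1 and 3 were thus the most alike pair.

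**Figure D4:**
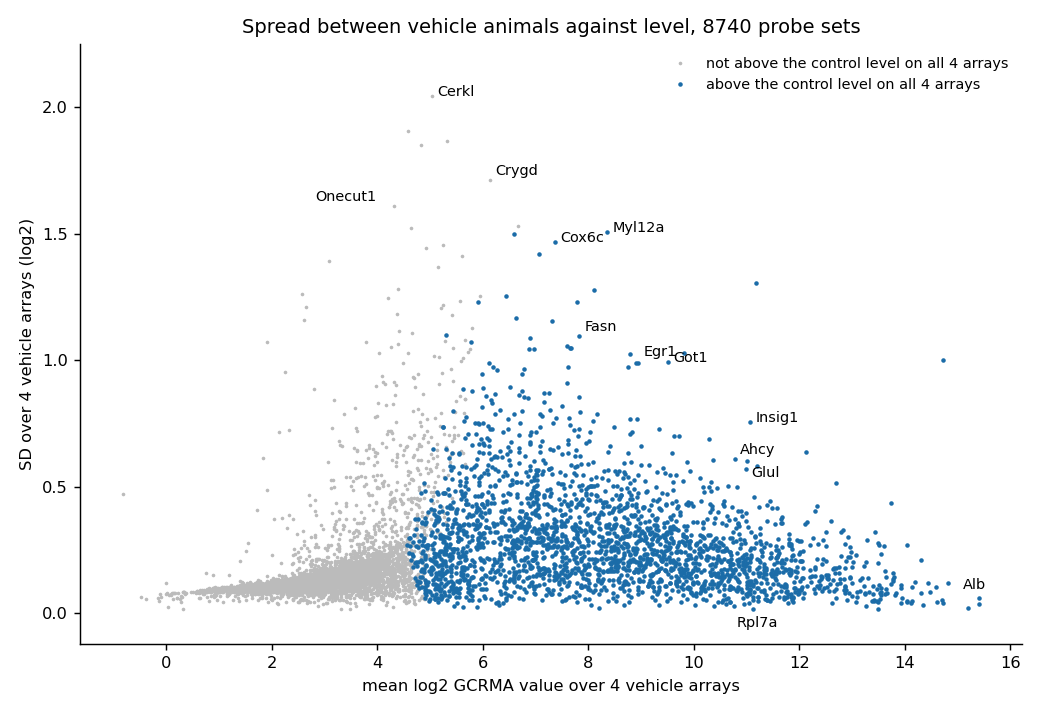
SD over the 4 vehicle arrays (vertical axis, log2) against the mean log2 GCRMA value (horizontal axis) for all 8740 probe sets, blue where every array lay above its control level. The spread was widest at means between 5 and 8 and narrow at the top, where Alb had an SD of 0.037.

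Spread depended on level. The median SD was 0.13 for probe sets with means from 0 to 4, 0.32 for those from 6 to 8, 0.19 for those from 10 to 12 and 0.061 for those of 14 and more. GCRMA compresses values near background, so the small SD of dim probe sets does not describe steady transcripts. Over the 2449 probe sets above the control level in the vehicle livers the median SD was 0.25 in vehicle livers, 0.19 in D3T livers, 0.27 in OLT livers and 0.32 in TBD livers. An SD of 0.5 or more was found for 296 of them (12.1%) in vehicle, 147 (6.0%) in D3T, 403 (16.5%) in OLT and 589 (24.1%) in TBD. These probe sets were chosen on the vehicle arrays, there is 1 such share per group, and the difference was not tested.

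**Figure D5:**
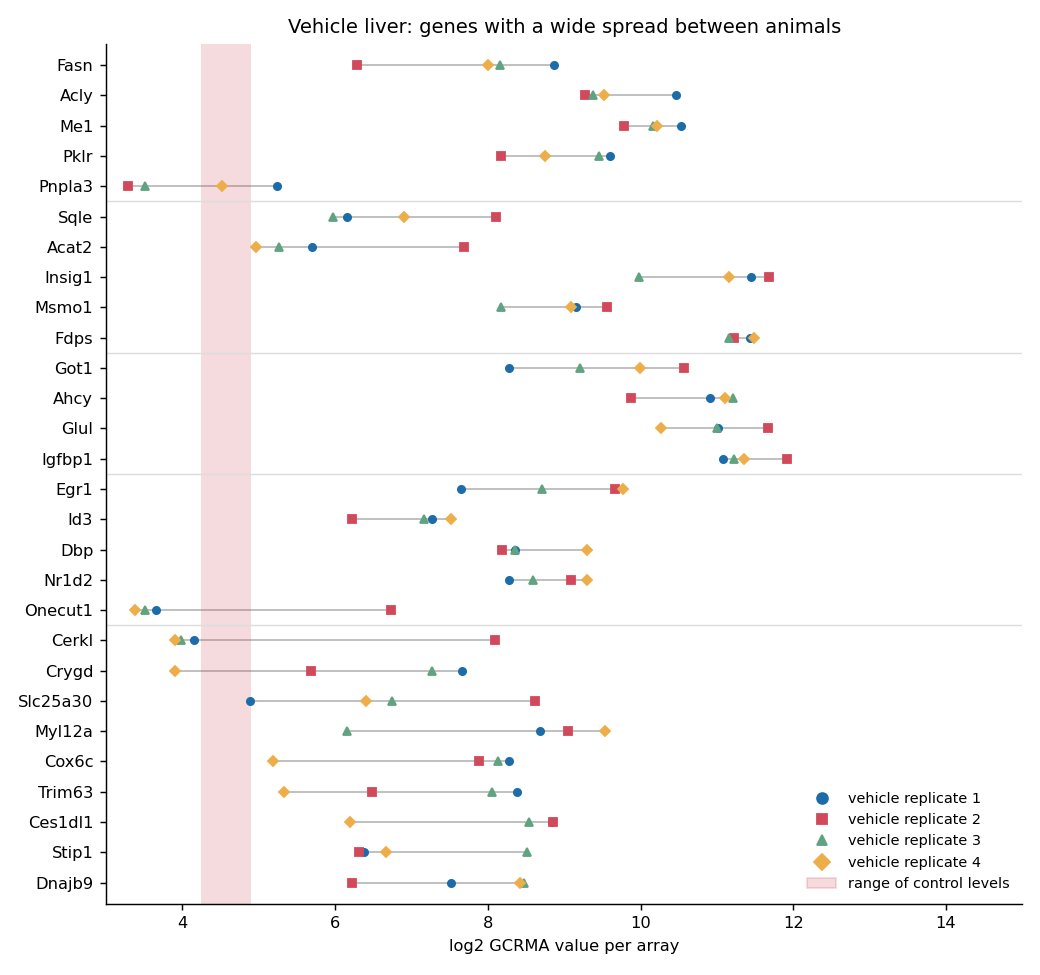
Log2 GCRMA values (horizontal axis) on each of the 4 vehicle arrays for genes with a wide spread, grouped from top to bottom as fat synthesis, cholesterol synthesis with Fdps as a steady member, amino acid and hormone-related genes, transcription factors, and other genes of the wide-spread list. The red band marks the control levels (4.24 to 4.89). Replicate 2 lies lowest for Fasn and Pklr and highest for Sqle, Acat2, Onecut1 and Cerkl.

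The 25 genes with the widest spread had SDs of 1.01 and more, and means from 5.03 to 8.36. Of these 25, 12 were above the control level on all 4 arrays and 13 on some. Cerkl, a ceramide kinase-like gene, had 4.15, 8.09, 3.98 and 3.90, and so was seen in replicate 2 alone. Myl12a, a myosin regulatory light chain, had 8.69, 9.05, 6.16 and 9.53, lowest in replicate 3, and its other probe set was also lowest there, at 3.63. Cox6c, a cytochrome oxidase subunit, had 8.28, 7.89, 8.13 and 5.19, and Trim63, a muscle ubiquitin ligase, had 8.38, 6.49, 8.05 and 5.33. Both were lowest in replicate 4, but the other probe set of Trim63 lay between 6.75 and 7.04 in all 4 animals and did not share the spread. Crygd, a lens crystallin, had 7.67, 5.69, 7.27 and 3.91, while its other probe set stayed below the control level. Slc25a30, a mitochondrial carrier, had 4.89, 8.62, 6.75 and 6.41, highest in replicate 2. Stip1, a cochaperone, had 6.37, 6.31, 8.52 and 6.67, highest in replicate 3, and Dnajb9, a chaperone of the endoplasmic reticulum, had 7.51, 6.23, 8.47 and 8.41, lowest in replicate 2.

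A pattern recurred between pairs of animals. Of the 25 genes, 11 were higher in both replicates 2 and 4 than in both replicates 1 and 3, among them Ddx21, an RNA helicase, with 4.45, 6.95, 5.31 and 6.46. The other way round were 7 genes, among them Crygd and Ache, acetylcholinesterase, with 6.83, 4.96, 6.33 and 4.14. This probe set of Ache was below the control level in replicate 4. The other probe sets of Ache, averaging 3.50 and 1.70, were below it in every animal. Among the 296 probe sets above the control level with an SD of 0.5 or more, replicates 2 and 4 were the highest pair in 168 (56.8%). Each other pair was the highest in 5.1% to 12.2%. Replicate 4 was the highest animal in 137 of the 296 and replicate 1 the lowest in 127. Array-wide values differed too. The number of probe sets above the array's own control level was 2475, 2942, 2706 and 2956 in replicates 1 to 4. Probe sets above the control level on all 4 arrays deviated from their own mean by a median of -0.09, 0.03, -0.04 and 0.11. Both values were higher in replicates 2 and 4. For probe sets below the median the deviations were 0.14, -0.15, 0.04 and -0.03, with replicates 3 and 4 close together. The part of these array-wide values in the wide spread of single genes was not tested.

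A second probe set offers a measurement of the same gene on the same arrays. Among 410 genes with 2 or more probe sets above the control level, the brightest 2 had the same highest animal in 186 (45.4%), and in 19 of 30 (63.3%) where the brightest had an SD of 0.5 or more. Glul was a case in which both had the same highest animal. Its next probe set had 9.93, 10.27, 9.95 and 9.05, again highest in replicate 2 and lowest in replicate 4. Abcd3, a peroxisomal transporter, had 11.30, 11.30, 11.35 and 10.11, and its other probe set had 9.42, 9.29, 9.47 and 7.42. Replicate 4 was lowest in both.

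At the other end, the steadiest gene above the array median was Rpl7a, a ribosomal protein gene, with 11.10, 11.12, 11.11 and 11.13 (SD 0.016). Tpm3, a tropomyosin, averaged 8.20 ± 0.019, Sem1, a proteasome component, 9.34 ± 0.032, and Blvra, biliverdin reductase, 6.31 ± 0.035. The values of these genes differed by less than 0.1 between any 2 animals.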

How the data were processed

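The authors deposited log2 expression values per probe set. The submitters' processing notes name GCRMA, without a version. The values were used as deposited, with no further normalization; no 2 of the 16 columns were identical. The submitters' platform annotation gave 7006 probe sets 1 symbol, 308 several and 1426 none, and only the first kind was named; 6985 of these matched RefSeq by Entrez identifier, which gave the current symbol. Means and SDs over the 4 vehicle arrays were computed with Python 3.11.15, pandas 2.3.3 and numpy 2.4.6 and tested on simulated data. The main class was above or below the array median on all 4 arrays, and the control level was an alternative. No test was run, since no contrast was made and 1 median or share per group has no replicate.

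The members, gene lists (43), isozyme sets, motifs and promoters were chosen with earlier results of these data known. Genes were named by rule: the 25 brightest, the 25 widest and 10 steadiest above the median, all isozymes and all members of 10 lists, and from every other list up to 5 brightest, 4 dimmest and 3 widest. Alternatives covered threshold, scaling, choice of probe set, measure of spread and leaving out each replicate. Promoters were taken from RefSeq (GRCr8).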

Additional observations from a re-analysis of the deposited data

Results flagged for a closer look

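Among the 284 genes named here, 11 (3.9%) had 1 vehicle animal whose gap to the nearest other, divided by the range of the 4, was above Dixon's 95% critical value, and chance alone gives about 1 in 20. Over the 2478 genes above the array median the share was 4.8%. Replicate 1 stood below the other animals for Sem1 (9.30 against 9.35 to 9.36 in the others). Replicate 2 stood above the other animals for Cerkl (8.09 against 3.90 to 4.15 in the others) and Onecut1 (6.73 against 3.39 to 3.66 in the others). Replicate 2 stood below the other animals for Pygl (8.38 against 8.64 to 8.68 in the others). Replicate 3 stood above the other animals for Stip1 (8.52 against 6.31 to 6.67 in the others). Replicate 3 stood below the other animals for Alas1 (10.36 against 10.79 to 10.85 in the others). Replicate 4 stood above the other animals for Dbp (9.30 against 8.18 to 8.36 in the others) and Fgb (13.55 against 13.33 to 13.36 in the others). Replicate 4 stood below the other animals for Abcd3 (10.11 against 11.30 to 11.35 in the others), Ces1dl1 (6.20 against 8.54 to 8.85 in the others) and Cox6c (5.19 against 7.89 to 8.28 in the others). The other, similarly bright probe set of Dbp had 8.27, 8.65, 8.40 and 8.31 and did not set replicate 4 apart.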

How the results depend on the processing

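No paired analysis was possible because the results come from no test. The count of probe sets above threshold on all 4 arrays was 4151 with the array median and 2449 with the control level, and that of genes 2478 and 1468. The 40th and 60th percentiles kept the counts within a factor of 1.5 of these, with 2978 and 1964 genes, as did the mean of all probe sets of a gene, with 2201. Leaving out 1 replicate gave 4158 to 4228 probe sets above, 4171 to 4231 below and 2479 to 2512 genes above. The median SD over probe sets above the median was 0.202; it was 0.290 after centring each array on these probe sets, 0.177 after quantile normalization, and 0.160 without replicate 2 to 0.227 without replicate 3. The cause was not tested. The count of such probe sets with an SD of 1 or more was 44, and 43 to 67 when 1 replicate was left out, the highest without replicate 3. The number of members above threshold moved by over 1.5 times in 9 of 43 lists with the control level, in 3 with the 40th percentile, in 4 with the 60th and in 3 with the mean of all probe sets. The mean of a named gene moved by more than its SD in 119 of 284 genes with the mean of all probe sets, in 16 after quantile normalization and in 0 when array medians were centred or 1 replicate was left out. With 4 arrays, an SD is itself loosely known, and signals near background are compressed.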

Other observations

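The brightest widely spread probe set of the array carries several gene symbols and is left unnamed. It had 15.22, 13.21, 15.26 and 15.17 on the 4 vehicle arrays, so that replicate 2 stood about 2 log2 units below the other animals at a level where the median SD was 0.061. Of the 40 brightest probe sets, 14 carry no single symbol.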
